A study of Mus musculus with 6 samples.

Results

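The MYC, MAX and MXD network was examined through 10 genes, Myc, Mycn, Mycl1, Max, Mxd1, Mxd3, Mxd4, Mxi1, Mnt and Mga, chosen by symbol from the 23284 genes listed for each library. Of these, 9 had a mean of at least 1 FPKM (reads scaled by transcript length and library total) over the 6 libraries and were tested among 10807 such genes, and Mycl1 lay below that level. The libraries held poly(A) RNA of whole hearts from C57BL/6 mouse embryos at stage E13.5. The 3 Tfam KO libraries came from embryos with both alleles of Tfam, the gene of a mitochondrial DNA packaging and transcription factor, flanked by loxP sites (Tfamfl/fl), and the 3 Control libraries from embryos with a single such allele (Tfamfl/+). Both groups carried a Cre recombinase gene in a copy of the Nkx2.5 locus (Nkx2.5IRES-Cre/+), which is active in the cardiac lineage, so the Control hearts had a floxed allele and the Cre too, and cells outside that lineage are not expected to lose Tfam in either group. Each library was a pool of 5 hearts.

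MYC proteins are transcription factors that bind DNA as heterodimers with MAX, at a site called the E-box, and raise the expression of genes for ribosome building, nucleotide and polyamine synthesis and cell growth. MXD proteins and MNT bind MAX at the same sites, recruit the SIN3 corepressor complex and lower transcription, so that MYC and MXD proteins compete for MAX. MGA is a large MAX partner that belongs to a Polycomb repressive complex known for silencing germline genes. In the mouse embryo heart, Mycn is known for its part in the growth of the myocardial wall.

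The libraries held between 12370092 and 18078620 reads. Rn45s, the precursor of ribosomal RNA, took 14.95% to 31.2% of reads in Tfam KO and 27.8% to 32.5% in Control. The FPKM values did not share a scale. Over the tested genes together the log2 fold change (Tfam KO minus Control, of log2(FPKM + 1)) had a median of 0.28 on the deposited scale, and of 0.01 once each library was divided by its size factor (0.828 to 1.33). Both scales are therefore given. The words rose and fell are kept for genes past an adjusted p of 0.05 in limma on both, which was met by 2.07% of tested genes in the upward and 0.953% in the downward direction. Tfam itself was at 3.97, 4.77 and 6.22 FPKM in Tfam KO and at 4.64, 5.55 and 6.62 FPKM in Control (log2 fold change -0.15, SE 0.23, limma adjusted p = 0.651), with overlapping groups. On the size-factor scale every Tfam KO library lay below every Control library for Tfam (-0.42, SE 0.15, limma adjusted p = 0.152), the direction of the labels, without passing the test. The 8 cardiomyocyte markers examined were all present, the lowest value being 10.4 FPKM for Ryr2.

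The 2 expressed MYC genes differed in opposite directions. Myc was higher in Tfam KO hearts and Mycn was lower, and in neither gene did the groups overlap on either scale. With all 6 libraries and no block, no member of the network passed on both scales, so neither gene is said to have risen or fallen. As deposited, 1 of 9 tested members was called higher and 0 lower by limma, against 6.21% and 1.16% of all tested genes. Unadjusted, the counts at 0.05 were also 1 and 0, against 23.3% and 2.53%. With size factors 0 were called higher and 1 lower, against 2.07% and 2.5%, and unadjusted the counts at 0.05 were 1 and 4, against 8.87% and 10.4%. By limma-voom on recovered reads 0 were called higher and 3 lower, against 2.55% and 4.27%.

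**Figure D1:**
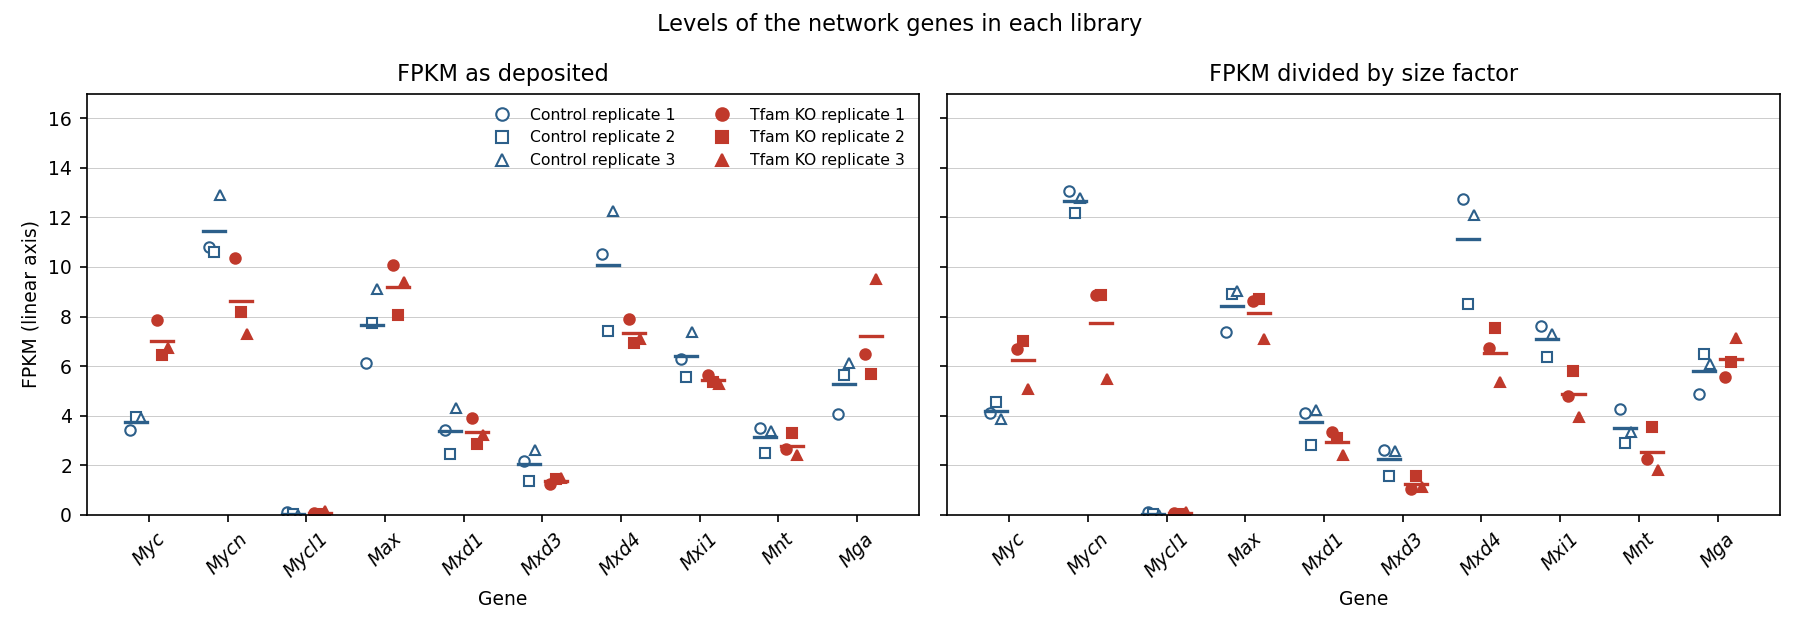
Level of each network gene in every library, in FPKM as deposited (left) and divided by the library's size factor (right), on linear axes. Open blue symbols are the 3 Control and filled red symbols the 3 Tfam KO libraries, and bars are group means. Myc lies higher in all Tfam KO libraries on both scales, at 6.46 to 7.84 FPKM against 3.41 to 3.94 FPKM as deposited, and Mycn lies lower in all of them.

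Myc, a driver of growth and division in many tissues, was at 7.84, 6.46 and 6.74 FPKM in Tfam KO and at 3.41, 3.94 and 3.92 FPKM in Control. All 3 Tfam KO libraries lay above all 3 Control libraries, which held between 114 and 170 reads of the gene. The mean was 7.01 ± 0.732 FPKM (SD, n = 3) in Tfam KO and 3.76 ± 0.301 FPKM (SD, n = 3) in Control, a ratio of 1.87. The limma difference of log2(FPKM + 1) was 0.75 (SE 0.23, limma adjusted p = 0.0198) on the deposited scale and 0.48 (SE 0.14, limma adjusted p = 0.0843) on the size-factor scale. On the size-factor scale the Tfam KO values were 6.69, 7.0 and 5.07 and the Control values 4.12, 4.54 and 3.88. The call as deposited was lost without Tfam KO replicate 1 or Control replicate 1, 2 or 3 (limma adjusted p = 0.153, 0.201, 0.0949 and 0.0740), while the log2 fold change stayed between 0.68 and 0.80. Without Tfam KO replicate 3 Myc passed on both scales (limma adjusted p = 0.0361 and 0.0422).

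Mycn, the paralog best known from embryonic tissues and neuroblastoma, was at 10.4, 8.17 and 7.28 FPKM in Tfam KO and at 10.8, 10.6 and 12.9 FPKM in Control. Tfam KO replicate 1 lay just under the lowest Control library as deposited. The mean was 8.61 ± 1.59 FPKM (SD, n = 3) in Tfam KO and 11.4 ± 1.28 FPKM (SD, n = 3) in Control. With size factors the values were 8.86, 8.86 and 5.48 in Tfam KO and 13.1, 12.2 and 12.8 in Control, so the gap between the groups was wider and Tfam KO replicate 3 was the lowest. Its log2 difference was -0.38 (SE 0.23, limma adjusted p = 0.261) on the deposited scale, -0.67 (SE 0.17, limma adjusted p = 0.0483) on the size-factor scale and -0.79 (adjusted p = 0.0128) by limma-voom. The size-factor call held without Tfam KO replicate 1 (limma adjusted p = 0.0461) and was lost without any other single library (0.0614 to 0.149), where the log2 difference ran from -0.77 to -0.47. The call was also lost with 0.1 added to FPKM instead of 1 (limma adjusted p = 0.0548). Groups that did not overlap in the downward direction were seen for 2.34% of tested genes as deposited and 11.6% with size factors, and in the upward direction for 25.6% and 12.5%.

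Mycl1, the third MYC gene, was hardly detected. It was at 0.0912, 0.0207 and 0.154 FPKM in Tfam KO and at 0.103, 0.0231 and 0 FPKM in Control, from at most 9 reads in a library. In Control replicate 3, 3 reads would correspond to 0.0475 FPKM. The groups overlapped (exact two-sided permutation test, p = 0.5, 20 splits, smallest possible p 0.1), and a difference was not detectable at this depth.

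Because the scale of a library cancels in a ratio of 2 of its own genes, the levels of network members were also compared within libraries, in 7 ratios. The ratio of Myc to Mycn FPKM was 0.756, 0.790 and 0.925 in Tfam KO and 0.316, 0.372 and 0.304 in Control. Every Tfam KO library was above every Control library by far more than the spread within either group. The mean log2 ratio was -0.29 ± 0.15 (SD, n = 3) in Tfam KO and -1.60 ± 0.16 (SD, n = 3) in Control, a 2.49-fold difference. The exact two-sided permutation p was 0.1, the smallest that 3 against 3 libraries allow, and 0.14 after Benjamini-Hochberg adjustment over the 7 ratios, so no ratio could pass 0.05. How often the ratios of other gene pairs separate the groups was not tested. With size factors the groups did not overlap for 12.5% of tested genes upward and 11.6% downward. Mxd1 and Mxd3 were not compared with Max. Myc made up 44.8% ± 2.43 (SD, n = 3) of the summed FPKM of the 3 MYC genes in Tfam KO and 24.7% ± 2.06 (SD, n = 3) in Control. The sum itself was 15.7 ± 2.26 FPKM and 15.2 ± 1.39 FPKM (SD, n = 3 each) on the deposited scale, with overlapping groups. On the size-factor scale it was 15.6, 15.9 and 10.7 in Tfam KO and 17.3, 16.7 and 16.6 in Control, lower in every Tfam KO library.

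**Figure D2:**
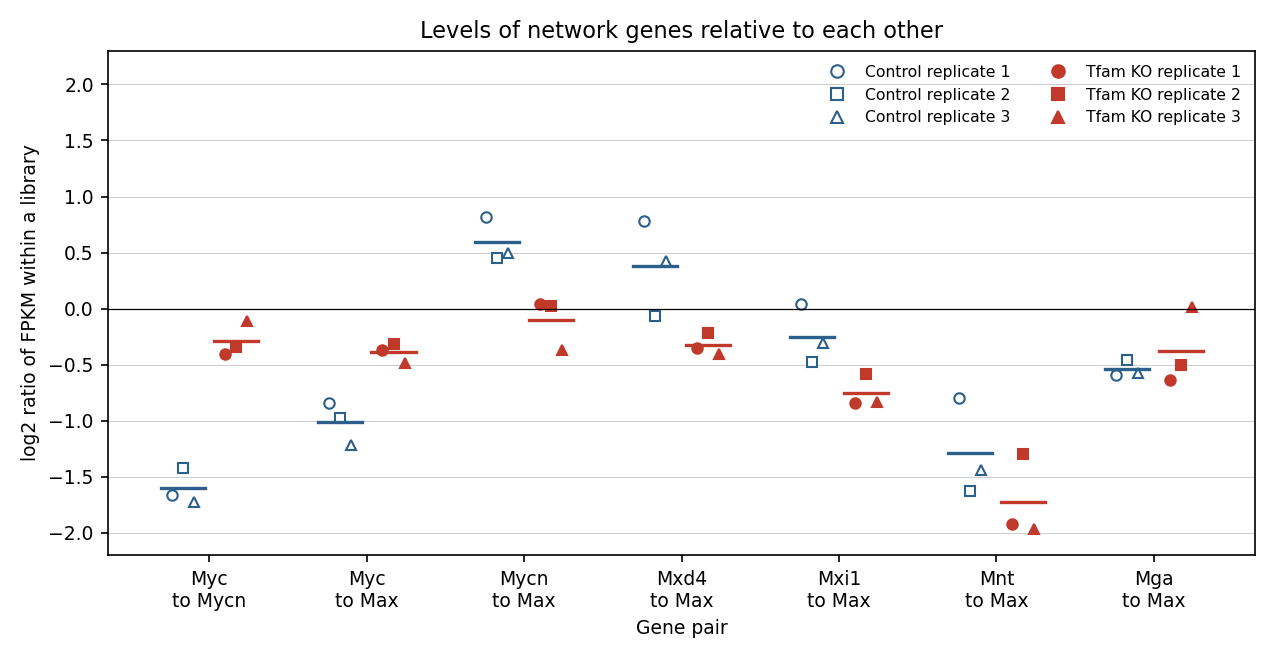
Ratio of FPKM between pairs of network genes within each library, on a log2 axis where 0 means equal levels. Symbols are libraries and bars are group means. The Tfam KO and Control libraries do not overlap for Myc to Mycn, Myc to Max, Mycn to Max, Mxd4 to Max and Mxi1 to Max, and they overlap for Mnt to Max and Mga to Max. How often other gene pairs separate the groups was not tested.

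The promoter of Mycn is shown because E2F factors, which act at the entry into S phase, are known to act on it in human neuroblastoma cells, and because the gene was lower in Tfam KO on both scales. The window runs from 250 bases before to 50 after the gene's start (RefSeq, GRCm38.p6, chr12:12941787-12942086, minus strand), and capitals mark matches to the E2F words TTTCCCGC, TTTGGCGC or TTTCGCGC on either strand.

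Mycn: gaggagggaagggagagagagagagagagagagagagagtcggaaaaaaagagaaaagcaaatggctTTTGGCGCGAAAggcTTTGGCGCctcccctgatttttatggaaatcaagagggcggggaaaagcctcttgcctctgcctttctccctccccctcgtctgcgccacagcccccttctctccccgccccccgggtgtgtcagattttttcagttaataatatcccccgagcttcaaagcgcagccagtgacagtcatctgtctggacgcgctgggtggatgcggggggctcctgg

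The window held 3 matches, beginning 183, 179 and 168 bases before the start, of which the first and the next overlap. Such a word was found in 1.84% of 32851 promoter windows of this length, and Mycn was the only member with a match among the 9 with an entry. The word TGATGNAA, part of the element bound by the stress factor ATF4, was found in none of the 9 members' windows on either strand and in 3.97% of all windows. Windows were available for all members but Myc, and Mxi1 had several. The members are counted per gene and the percentages per window.

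Max encodes the partner shared by the MYC and MXD proteins. It was at 10.1, 8.05 and 9.40 FPKM in Tfam KO and at 6.12, 7.74 and 9.13 FPKM in Control, with overlapping groups. Its log2 difference was 0.24 (SE 0.23, limma adjusted p = 0.464) on the deposited scale, near the shift of 0.28 in all tested genes, and -0.05 with size factors (95% interval -0.34 to 0.24, limma adjusted p = 0.886). Relative to Max, Myc was higher in all 3 Tfam KO libraries, with ratios of 0.777, 0.802 and 0.716 against 0.557, 0.509 and 0.429 in Control. Mycn was lower relative to Max, with ratios of 1.03, 1.01 and 0.775 against 1.77, 1.37 and 1.41. The differences were 0.62 and -0.69 on the log2 scale (exact permutation p = 0.1, adjusted 0.14, for each). Max was near level with size factors, so these ratios largely repeat the size-factor values of Myc and Mycn. The E-box word CACGTG began 3 bases before the start of Max and ran across the start. It is shown in capitals in the window of Max (RefSeq, GRCm38.p6, chr12:76962199-76962498, minus strand), since this is the site the MAX dimers themselves bind.

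Max: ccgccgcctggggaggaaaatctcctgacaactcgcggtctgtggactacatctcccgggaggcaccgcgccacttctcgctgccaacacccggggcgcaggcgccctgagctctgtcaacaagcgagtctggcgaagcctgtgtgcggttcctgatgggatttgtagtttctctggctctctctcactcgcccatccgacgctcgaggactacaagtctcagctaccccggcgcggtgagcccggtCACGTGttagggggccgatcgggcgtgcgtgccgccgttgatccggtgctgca

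The MXD genes were lower or level in Tfam KO. Mxd4, an antagonist of MYC found in resting and differentiating cells, was the most abundant of them, at 7.91, 6.94 and 7.11 FPKM in Tfam KO and at 10.5, 7.41 and 12.2 FPKM in Control. Control replicate 2 lay near the Tfam KO libraries and inside their range as deposited. Its log2 difference was -0.39 (SE 0.23, limma adjusted p = 0.252) on the deposited scale and -0.68 (SE 0.17, limma adjusted p = 0.0504) on the size-factor scale, where the groups did not overlap. By limma-voom it was -0.82 (adjusted p = 0.0246). Its ratio to Max was 0.783, 0.862 and 0.756 in Tfam KO and 1.72, 0.957 and 1.34 in Control, again without overlap. Without Control replicate 2 the size-factor value was -0.84 (limma adjusted p = 0.0149). The window of Mxd4 (RefSeq, GRCm38.p6, chr5:34187661-34187960, minus strand) is shown for its E-box word in capitals, 219 bases before the start. Mxd4 had the largest limma difference of log2(FPKM + 1) among the MXD genes on both scales. That order depends on the 1 added to FPKM. With 0.1 added instead, Mxd3 was at -0.49 and -0.79 on the 2 scales and Mxd4 at -0.43 and -0.75. By limma-voom Mxd3 was at -0.91.

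Mxd4: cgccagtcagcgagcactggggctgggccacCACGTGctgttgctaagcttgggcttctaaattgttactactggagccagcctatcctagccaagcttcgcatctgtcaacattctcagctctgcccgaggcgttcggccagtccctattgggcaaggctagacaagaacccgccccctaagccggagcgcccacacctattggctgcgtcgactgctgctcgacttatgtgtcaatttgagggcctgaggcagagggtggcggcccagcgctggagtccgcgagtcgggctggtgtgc

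A CACGTG word was present in the windows of Max, Mxd4 and Mnt, 3 of the 9 members with an entry, and in 7.15% of all 32851 windows. The members are counted per gene and the percentage per window, so these shares are not directly comparable.

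Mxi1, a repressor also known as Mxd2, was at 5.63, 5.36 and 5.27 FPKM in Tfam KO and at 6.31, 5.55 and 7.37 FPKM in Control. The Tfam KO values were close together, and the highest of them lay just above the lowest Control value. Its log2 difference was -0.20 (SE 0.23, limma adjusted p = 0.541) on the deposited scale, -0.48 (SE 0.14, limma adjusted p = 0.0936) on the size-factor scale and -0.59 (adjusted p = 0.0327) by limma-voom. Its ratio to Max was 0.557, 0.666 and 0.560 in Tfam KO against 1.03, 0.717 and 0.807 in Control, without overlap (exact permutation p = 0.1, adjusted 0.14).

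Mxd3, the MXD gene known from dividing cells in S phase, was at 1.23, 1.45 and 1.47 FPKM in Tfam KO and at 2.16, 1.37 and 2.60 FPKM in Control, from 20 to 61 reads a library. Control replicate 2 lay among the Tfam KO libraries as deposited, and with size factors it lay just above the highest of them (1.58 against 1.57). Its log2 difference was -0.33 (SE 0.21, limma adjusted p = 0.284) on the deposited scale and -0.53 (SE 0.17, limma adjusted p = 0.121) on the size-factor scale. Without Control replicate 2 the size-factor value was -0.69 (limma adjusted p = 0.0418). In the reference annotation the exons of Mxd3 share 105 bases with Prelid1 on the opposite strand, and those of Mxd4 and Mxi1 share 353 and 194 bases with the predicted genes Gm42846 and Gm10197. Prelid1 was at 56.6 to 91.2 FPKM over the 6 libraries. The strand setting of the counting is not given in the sources used here, so reads of these shared stretches cannot be told apart. Mxd1, linked to cells leaving the cycle, was at 3.90, 2.86 and 3.21 FPKM in Tfam KO and at 3.40, 2.46 and 4.30 FPKM in Control. The groups overlapped throughout, with a log2 difference of -0.01 (95% interval -0.44 to 0.43) on the deposited and -0.25 (-0.61 to 0.10) on the size-factor scale (limma adjusted p = 0.985 and 0.431).

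Mnt, the MAX partner present in most cells as a standing MYC antagonist, was at 2.66, 3.28 and 2.41 FPKM in Tfam KO and at 3.52, 2.50 and 3.38 FPKM in Control. The groups overlapped on both scales, with log2 fold changes of -0.12 (SE 0.22, limma adjusted p = 0.699) and -0.36 (SE 0.19, limma adjusted p = 0.343). Mga was at 6.49, 5.70 and 9.50 FPKM in Tfam KO and at 4.05, 5.65 and 6.13 FPKM in Control. Its highest value was that of Tfam KO replicate 3, the library with the largest size factor, and the groups overlapped. Its log2 difference was 0.38 (SE 0.23, limma adjusted p = 0.258) on the deposited scale and 0.10 (95% interval -0.21 to 0.41, limma adjusted p = 0.767) on the size-factor scale. The ratios of Mnt and Mga to Max overlapped between the groups (exact permutation p = 0.3 and 0.7, adjusted 0.35 and 0.7).

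**Figure D3:**
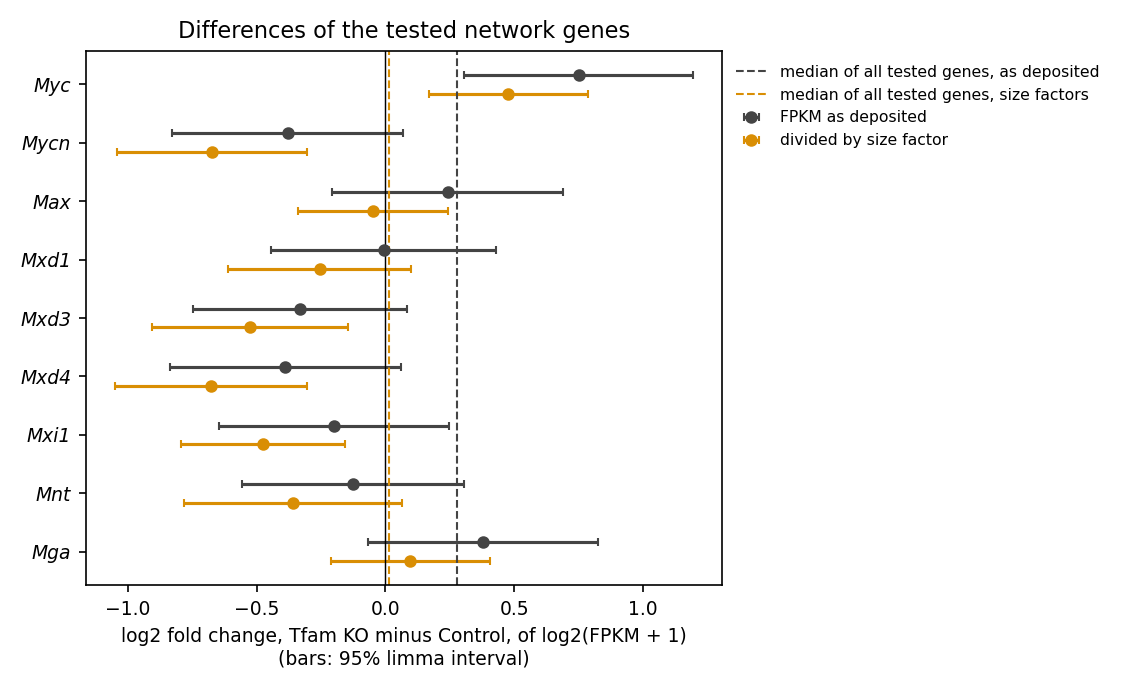
Log2 fold change (Tfam KO minus Control) of the 9 tested network genes with 95% limma intervals, as deposited (grey) and with size factors (orange). Dashed lines are the medians of all tested genes, 0.28 and 0.01. On each scale Myc and Mga lie to the right of that scale's line and the other 7 genes to the left of it, and Max changes sign between the scales.

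The 9 tested members had median log2 differences of -0.12 (deposited scale) and -0.36 (size-factor scale), beside 0.28 and 0.01 over all tested genes. Below 0 were 6 of 9 members as deposited and 7 of 9 with size factors, while 84.4% and 52.0% of all tested genes were above 0. The summed FPKM of Mxd1, Mxd3, Mxd4, Mxi1 and Mnt was 20.2 ± 0.970 in Tfam KO and 25.0 ± 5.35 in Control (SD, n = 3 each) on the deposited scale, where the groups overlapped. On the size-factor scale it was 18.2, 21.6 and 14.7 in Tfam KO and 31.3, 22.2 and 29.6 in Control, without overlap. Control replicate 2 lay just above Tfam KO replicate 2, by less than the SD within either group (3.45 in Tfam KO, 4.83 in Control). Of tested genes 12.5% upward and 11.6% downward did not overlap on this scale. Per library the ratio of summed MYC to summed MXD and MNT FPKM was 0.859, 0.736 and 0.728 in Tfam KO and 0.553, 0.754 and 0.563 in Control. Control replicate 2 lay inside the Tfam KO range, so this balance did not separate the groups.

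The order of levels also differed between the groups. In Control the order by mean FPKM was Mycn, Mxd4, Max, Mxi1, Mga, Myc, Mxd1, Mnt, Mxd3 and Mycl1. The ranges of neighbours in this order overlapped except between Mga and Myc and between Mxd3 and Mycl1. In Tfam KO the order was Max, Mycn, Mxd4, Mga, Myc, Mxi1, Mxd1, Mnt, Mxd3 and Mycl1. There the first 5 overlapped neighbour by neighbour, and Myc lay above Mxi1, Mxi1 above Mxd1, Mnt above Mxd3 and Mxd3 above Mycl1 without overlap. Myc thus stood under Mxi1 in every Control library and above it in every Tfam KO library.

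Among genes known to be activated by MYC every limma call was upward, though few genes passed on both scales. Of 57 tested genes of ribosome building and growth, 20 were called higher and 0 lower as deposited, which is 35.1% beside 6.21% of all tested genes. With size factors 4 were higher and 0 lower, which is 7.02% beside 2.07%. Their medians in log2 terms were 0.56 and 0.25 on these scales, with 44 of 57 above 0 on the latter. Srm, which makes spermidine, rose from 5.16 ± 0.637 to 12.6 ± 3.66 FPKM (SD, n = 3 each). The others past both thresholds were Hk2, the hexokinase of glycolysis, and Hspd1, a mitochondrial chaperonin, at log2 differences of 1.04 and 1.003 on the deposited scale, and Rrp12, a ribosome export factor named after its values were seen, which rose from 1.94 ± 0.359 to 4.78 ± 1.01 FPKM. The nucleolar GTPase gene Gnl3, also picked with its values known, had 15.6 ± 4.36 FPKM in Control and 34.9 ± 13.8 FPKM in Tfam KO. Its size-factor log2 difference was 0.77 (limma adjusted p = 0.0570).

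The 19 tested MYC-activated genes of metabolism and translation gave 6 higher and 0 lower calls on the deposited scale. On the size-factor scale they gave 4 and 0. The higher calls make 31.6% and 21.1% of the list, beside 6.21% and 2.07% of all tested genes. Its medians were 0.52 and 0.20, beside 0.28 and 0.01. Slc7a5, a large amino acid transporter subunit, rose from 5.88 ± 0.459 to 37.1 ± 6.09 FPKM. Shmt2, a mitochondrial serine enzyme, rose from 11.0 ± 1.77 to 39.0 ± 8.55 FPKM, and the glutamine transporter Slc1a5 from 4.84 ± 0.358 to 15.2 ± 2.38 FPKM. These 3 are also on the list of ATF4 targets, of whose 35 tested genes 33 passed upward on both scales (medians 1.85 and 1.53 on the log2 scale). The fourth was the cyclin gene Ccnd2. The ornithine decarboxylase gene Odc1, a known MYC target picked with its values known, had 51.3 ± 5.56 FPKM in Control and 86.8 ± 21.7 FPKM in Tfam KO. It passed on the deposited scale (limma adjusted p = 0.0290) and not on the size-factor scale (limma adjusted p = 0.0922).

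Among genes known to be repressed by MYC the limma calls were upward too. The 8 tested gave 3 higher and 0 lower calls on the deposited scale, and 2 and 0 on the size-factor scale. The higher calls make 37.5% and 25% of the list, beside 6.21% and 2.07% of all tested genes. Its medians of 0.18 and -0.13 lay below the 0.28 and 0.01 of all tested genes. Those past both thresholds were the cell cycle inhibitor Cdkn1a and the damage response gene Gadd45a, with log2 differences of 1.84 and 1.40 on the deposited scale, both of which are also p53 targets.

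**Figure D4:**
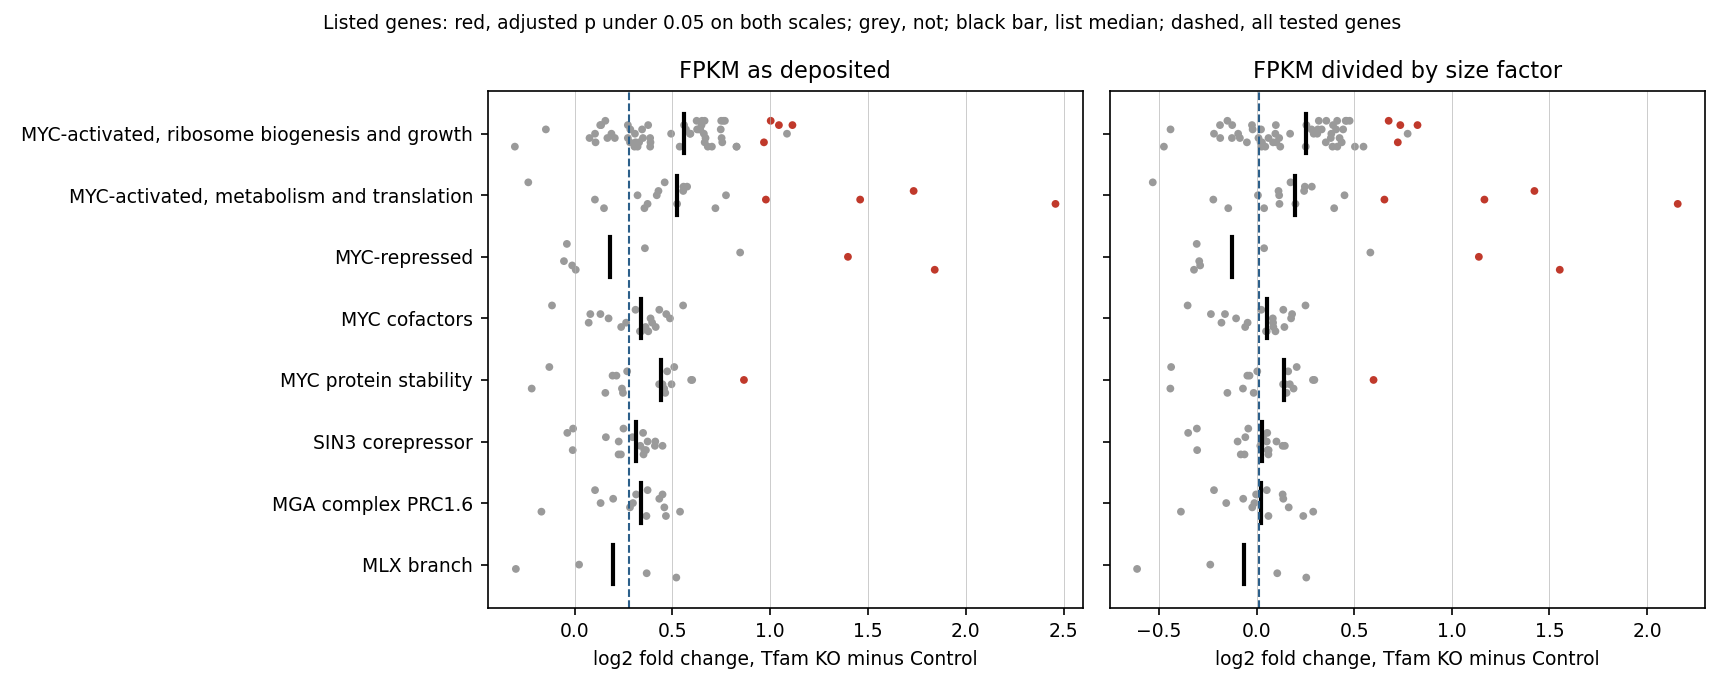
Log2 fold change (Tfam KO minus Control) of each tested gene in 8 lists around the network, as deposited (left) and with size factors (right). Points are genes, red where the adjusted p was under 0.05 on both scales, black bars are list medians and dashed lines the medians of all tested genes. The lists of MYC-activated genes have medians of 0.56 and 0.52 as deposited and 0.25 and 0.20 with size factors, above the dashed lines at 0.28 and 0.01.

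The lists of network cofactors are short, and few calls are due in them at the share of all tested genes. That share was 6.21% higher and 1.16% lower as deposited, and 2.07% and 2.5% with size factors. Unadjusted at 0.05 it was 23.3% and 2.53% as deposited, and 8.87% and 10.4% with size factors. By limma-voom it was 2.55% and 4.27%. Of 19 MYC cofactors, among them acetyltransferase and elongation factor subunits, 0 were called by limma on either scale or by limma-voom (3 higher and 0 lower unadjusted at 0.05 on the deposited scale, 0 and 1 on the other). Their medians were 0.34 and 0.05. The list for the SIN3 corepressor held 18 genes, Ncor1 among them. Of these 0 were called by any of the 3 fits (0 higher and 0 lower unadjusted as deposited, 0 and 3 with size factors), with medians of 0.32 and 0.03. Of 14 subunits of the MGA complex, 0 were called either (3 and 0 unadjusted as deposited, 0 and 1 with size factors), with medians of 0.34 and 0.02. Of 15 germline genes that this complex is known to silence, 13 lay below 1 FPKM on average and the highest value in any library was 2.76 FPKM. The 2 tested ones, Tdrkh and Zcwpw1, were not called in limma or limma-voom, nor at an unadjusted p under 0.05.

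Of 18 genes that set the stability of MYC proteins, 1 was higher and 0 lower on each scale, with medians of 0.44 and 0.14. This share of 5.56% is near the 6.21% of all tested genes called higher on the deposited scale. The gene was Usp36, a nucleolar deubiquitinase known to stabilise MYC in human cells, which rose from 3.11 ± 0.352 to 6.49 ± 0.826 FPKM (SD, n = 3 each, log2 difference 0.87, SE 0.23, limma adjusted p = 0.00444 on the deposited scale). On the size-factor scale the log2 difference was 0.60 (SE 0.12, limma adjusted p = 0.0163). Fbxw7, the ubiquitin ligase subunit that marks MYC for degradation, picked with its values known, was at 3.44 ± 0.542 FPKM in Control and 4.37 ± 1.51 FPKM in Tfam KO (limma adjusted p = 0.445). In the parallel MLX branch, whose factors also bind E-box-like sites, 0 of 4 tested genes passed as deposited (1 higher and 0 lower unadjusted). With size factors Txnip, a glucose-responsive target, was lower (log2 fold change -0.61, limma adjusted p = 0.0237). It was at 18.9 ± 1.63 FPKM in Tfam KO and 23.5 ± 1.93 FPKM in Control.

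In whole hearts, fewer cells of a type and less RNA per cell cannot be told apart. Of all tested genes 6.21% were called higher and 1.16% lower as deposited, and 2.07% and 2.5% with size factors. Of 8 cardiomyocyte markers 0 were called as deposited and 1 was lower with size factors. That marker, named with its values known, was Nkx2-5, whose locus carries the Cre in both groups (limma adjusted p = 0.0395 with size factors). It was at 17.2 ± 3.55 FPKM in Tfam KO and 26.5 ± 2.50 FPKM in Control. The summed size-factor FPKM of the 8 markers ran from 6420 to 12418 in Tfam KO and from 9973 to 13169 in Control. Of 7 mesenchyme markers 3 were higher as deposited and 0 with size factors, with sums of 334 to 380 against 255 to 378 on the size-factor scale. Of 3 tested smooth muscle markers 2 were lower with size factors, and the sums of all 4 were 238 to 282 against 405 to 441. None of 5 markers of dividing cells was called by any fit (0 unadjusted as deposited, 0 higher and 1 lower with size factors), with sums of 138 to 191 against 164 to 191. Of the 8 endothelial, 6 epicardial, 4 tested erythroid and 5 macrophage markers 0 were called with size factors, and 1, 0, 0 and 1 were higher as deposited. The erythroid marker Hba-a1 was listed at 0 in every library. By limma-voom 2 cardiomyocyte and 2 smooth muscle markers were lower and no other marker was called, beside 2.55% higher and 4.27% lower of all tested genes. The part of cell makeup in the levels of Myc, Mycn and Mxd4 was not tested.

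By Pearson's r of the size-factor log2 values over the 6 libraries, genes among the most like Myc, of 10085 named genes, were Stat6 (r = 0.999) and Gabarapl1 (0.993). Those most like Mycn were Manf (0.995), Gadd45gip1 (0.993) and Irgq (0.992). With only 6 libraries that share their scaling, 72 and 141 genes reached an r above 0.95 with Myc and Mycn, so these values describe the libraries only.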

How the data were processed

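Poly(A) RNA of 3 Tfam KO and 3 Control pools of 5 hearts was compared. The authors deposited log2(FPKM + 1) values, the FPKM unit being given by the file names and the log2 scale read from the values. CASAVA 1.8.2, TopHat2 2.0.7 and HTSeq 0.5.3 with build mm9 are listed in the submitters' processing notes, without roles, and the annotation and strand setting are not given in the sources used here. Limma 3.58.1 (R 4.3.3), with a variance trend and two-sided tests adjusted by Benjamini-Hochberg over the 10807 genes that averaged 1 FPKM or more, was run on the deposited values and on values divided by median-of-ratios size factors. It was also run on simulated data. The changes planted there were larger than those of the tested members, so that run does not bear on their calls. Library totals, recovered as below, include Rn45s reads, whose share varied.

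Whole reads were recovered from the steps in FPKM for all 17876 genes above 0 (tolerance 1e-05 of a read, wider for genes with many reads). A gene's reads may be off by a shared whole factor. Library totals were fixed by 400 genes whose reference transcripts share a single length. They served for depth and for limma-voom. Same-numbered replicates were not treated as pairs. Mycl1 and the ratios were compared by exact permutation over 20 splits. The labels describe each library as a pool of hearts and say no more of how replicates differ, so p-values refer to these libraries only. On the deposited scale, with all 6 libraries, limma took each gene's variance wholly from the tested genes of like level. The SE printed for that scale is therefore not the gene's own spread. With size factors the gene's own spread counted in part (prior degrees of freedom 6.2). Genes named were the members, up to 3 per list past 0.05 on both scales, and the 3 most like Myc and Mycn, of which 1 is not reported here. Others are marked where named. Members and lists were chosen with earlier results of these data known, so no list is independent support.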

Additional observations from a re-analysis of the deposited data

How the results depend on the processing

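Myc kept its direction in every alternative, but its log2 difference was no longer past 0.05 with size factors (0.48), with size factors and a pseudocount of 0.1 (0.56), by limma-voom (0.55), and with a filter at a mean of 0.1 FPKM or no filter (0.75 in both, limma adjusted p = 0.0536 and 0.104), where more genes were tested. Leaving out single libraries gave 0.68 to 0.80. With size factors it gave 0.43, 0.41 and 0.60 without Tfam KO replicates 1, 2 and 3, and 0.47, 0.53 and 0.44 without Control replicates 1, 2 and 3, past 0.05 only without Tfam KO replicate 3. Mycn passed with size factors (-0.67) and by limma-voom (-0.79), but not with size factors and a pseudocount of 0.1 (-0.74, limma adjusted p = 0.0548). It ran from -0.51 to -0.28 without single libraries, or from -0.77 to -0.47 with size factors. Max changed sign with size factors (-0.048), with these and a pseudocount of 0.1 (-0.053) and by limma-voom (-0.088), and ran from 0.11 to 0.36 without single libraries. With size factors it was at -0.086 and -0.091 without Tfam KO replicates 1 and 2, above 0 without Tfam KO replicate 3 (0.041), and at -0.14, -0.0087 and -0.00039 without Control replicates 1, 2 and 3. Mxd4 and Mxi1 passed by limma-voom (-0.82 and -0.59). Without single libraries Mxd1 ran from -0.17 to 0.14, and with size factors Mxd3 ran from -0.69 to -0.45, Mxd4 from -0.84 to -0.55 and Mga from -0.0092 to 0.17. The Mga to Max ratio ran from -0.026 to 0.30, falling below 0 without Tfam KO replicate 3. The other 6 ratios kept their direction without each library.

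Of all tested genes, 671 were called higher and 125 lower on the deposited scale. The counts were 224 and 270 with size factors, 217 and 250 with these and a pseudocount of 0.1, 335 and 73 with the filter at 0.1 FPKM, 145 and 22 with no filter, and 276 and 461 by limma-voom. Without single libraries they ran from 234 to 2273 higher and 52 to 112 lower, and with size factors the higher counts were 212, 159 and 200 without Tfam KO replicates 1, 2 and 3 and 161, 218 and 138 without Control replicates 1, 2 and 3. The lower counts ran from 118 to 338, with 267 and 203 without Tfam KO replicates 1 and 2. Network members called higher numbered 1 on the deposited scale and 0 with size factors, with these and a pseudocount of 0.1, under either other filter and by limma-voom, and 0 to 1 without single libraries. Members called lower numbered 0 on the deposited scale, 1 with size factors, 0 with these and a pseudocount of 0.1, and 3 by limma-voom. Without single libraries they numbered 0 on the deposited scale and 0 to 2 with size factors.

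Same-numbered libraries deviated together with correlations of 0.36, 0.05 and 0.17, and not every library correlated best with its own number. The samples share only a number. With the replicate number as a block the calls were 2083 higher and 241 lower, and with size factors too 287 and 394. Under the block Myc kept its call (limma adjusted p = 0.0012). With block and size factors Mycn was at -0.67 (limma adjusted p = 0.0363), the 1 member called lower, and Myc the 1 called higher (0.48, limma adjusted p = 0.0498), so that with the block Myc passed on both scales. Max was at -0.048. With 3 pools a group, Mycl1 and Mxd3 rest on few reads.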
